A study of Mus musculus with 4 samples.

Results

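The glucocorticoid response genes described here are 10 genes chosen by name: the receptor Nr3c1 and 9 genes that glucocorticoid hormone is known to act on, Fkbp5, Tsc22d3, Sgk1, Glul, Klf9, Klf15, Cebpb, Cebpd and Zbtb16. They were found by their GENCODE symbols among the 55401 genes of the count files, and all 10 had enough counts to enter the test, which covered 13533 genes. The libraries held poly(A) RNA of the semimembranosus, one of the hamstrings, of 8-week-old C57BL/6 mice. All had iliac vein stenosis (IVS): a ligature around the left external iliac vein and a 30-gauge needle had left the vessel narrow. The IVS_diosmin group (2 libraries) then received diosmin, a plant flavonoid given for vein disease, by gavage at 40 mg per kg per day, and the IVS group (2 libraries) received saline by gavage each day. No library came from an unoperated mouse, and the hormone itself was not among the measurements analysed here. The labels do not say whether the libraries of a group came from separate animals, so the p-values below speak only of the spread among these 4 libraries, which could be technical.

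Glucocorticoids (corticosterone in mice) cross the cell membrane and bind the glucocorticoid receptor, which waits in the cytoplasm in a complex with HSP90 chaperones. The loaded receptor moves to the nucleus and binds short palindromes in DNA, the glucocorticoid response elements, to raise or lower transcription. In skeletal muscle this pathway is known for slowing protein synthesis, speeding protein breakdown and sending amino acids, glutamine above all, into the blood.

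The palindrome could be read directly near one of the genes. RefSeq promoter windows (GRCm38.p6, the assembly behind mm10, from 250 bases before to 50 bases after a start site) were at hand for 7 of the 10 genes, 14 windows in all, since some genes have several starts. The full element was searched as GNACANNNTGTNC and the half-site as TGTTCT, which reads AGAACA on the other strand. Both strands were read, and a half-site may overlap a full element. The full element was found in 1 of the 14 windows, at a start site inside Sgk1, against 0.475% of all 32851 windows searched. The half-site was found in 4 windows, of Sgk1 and Tsc22d3, against 19.0% of all windows. The Sgk1 window with the full element is among these 4. Only Sgk1 and Tsc22d3 had more than 1 window, and all but 1 of the 4 half-site windows were of Sgk1. By gene, the half-site was found in 2 of the 7 and the full element in 1 of the 7. The share by gene over all genes was not computed. The first sequence is shown because it holds the full element, the second because it holds a half-site, and the others because Glul had the smallest p of the 10 genes and Fkbp5 the largest fold change and the largest spread; capitals mark the full element and the half-sites.
Sgk1, chr10:21993640-21993939, plus strand: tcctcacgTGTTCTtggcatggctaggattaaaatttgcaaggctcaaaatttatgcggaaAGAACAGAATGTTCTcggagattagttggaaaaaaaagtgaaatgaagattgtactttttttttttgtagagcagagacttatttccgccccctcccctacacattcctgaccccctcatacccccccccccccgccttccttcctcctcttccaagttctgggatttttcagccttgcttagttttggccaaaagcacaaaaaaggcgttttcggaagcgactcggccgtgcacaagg
Tsc22d3, chrX:140600473-140600772, minus strand: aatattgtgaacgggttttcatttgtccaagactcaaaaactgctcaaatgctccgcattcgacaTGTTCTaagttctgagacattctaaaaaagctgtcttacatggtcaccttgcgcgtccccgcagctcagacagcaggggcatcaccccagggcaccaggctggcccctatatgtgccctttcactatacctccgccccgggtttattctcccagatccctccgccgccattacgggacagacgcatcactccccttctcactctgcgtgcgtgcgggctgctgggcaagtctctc
Glul, chr1:153899679-153899978, plus strand: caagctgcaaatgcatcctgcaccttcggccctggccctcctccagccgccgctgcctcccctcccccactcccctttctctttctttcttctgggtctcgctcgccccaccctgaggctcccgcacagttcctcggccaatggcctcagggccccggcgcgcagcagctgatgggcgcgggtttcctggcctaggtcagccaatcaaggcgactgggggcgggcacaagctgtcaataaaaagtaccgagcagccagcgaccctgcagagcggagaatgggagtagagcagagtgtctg
Fkbp5, chr17:28486100-28486399, minus strand: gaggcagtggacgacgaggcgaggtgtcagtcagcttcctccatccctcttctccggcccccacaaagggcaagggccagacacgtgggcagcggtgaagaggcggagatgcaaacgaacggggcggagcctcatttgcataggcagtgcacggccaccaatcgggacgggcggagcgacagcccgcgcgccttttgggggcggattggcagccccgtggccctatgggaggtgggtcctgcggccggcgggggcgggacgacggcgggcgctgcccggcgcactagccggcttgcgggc
The element of Sgk1 begins at position -188 from that start site, and its 13 letters were GAACAGAATGTTC. The windows of Glul and Fkbp5 held neither motif, which says only that these letters are not in these 300 bases. A match is a description of the letters, not a measured binding site.

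No glucocorticoid response gene passed the test between the groups, although the fitted value of all 10 was lower in IVS_diosmin than in IVS. The count past the threshold was 0 of 10 (edgeR quasi-likelihood test, adjusted p under 0.05), against 2.96% of all tested genes. At an unadjusted p under 0.05 there were 3, all lower (Glul, Nr3c1 and Sgk1), against 8.91% of all tested genes that were lower at that level. DESeq2 called 2 of the 10, Glul (adjusted p = 0.00977) and Nr3c1 (adjusted p = 0.0444), against 606 of all 9597 genes it adjusted. Limma-voom called 0 of the 10, against 310 of all 13533 genes. In 4 of the 10 genes, Nr3c1, Tsc22d3, Sgk1 and Glul, both IVS_diosmin libraries lay below both IVS libraries, against 24.1% of all tested genes. In the other 6 the groups overlapped, and in none were both IVS_diosmin libraries above both IVS libraries, against 23.4% of all tested genes. The median log2 fold change was -0.47 over the 10 genes and 0.01 over all tested genes, of which 49.5% had a lower fitted value. In bulk tissue, fewer cells of a type and less RNA per cell cannot be told apart.

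**Figure D1:**
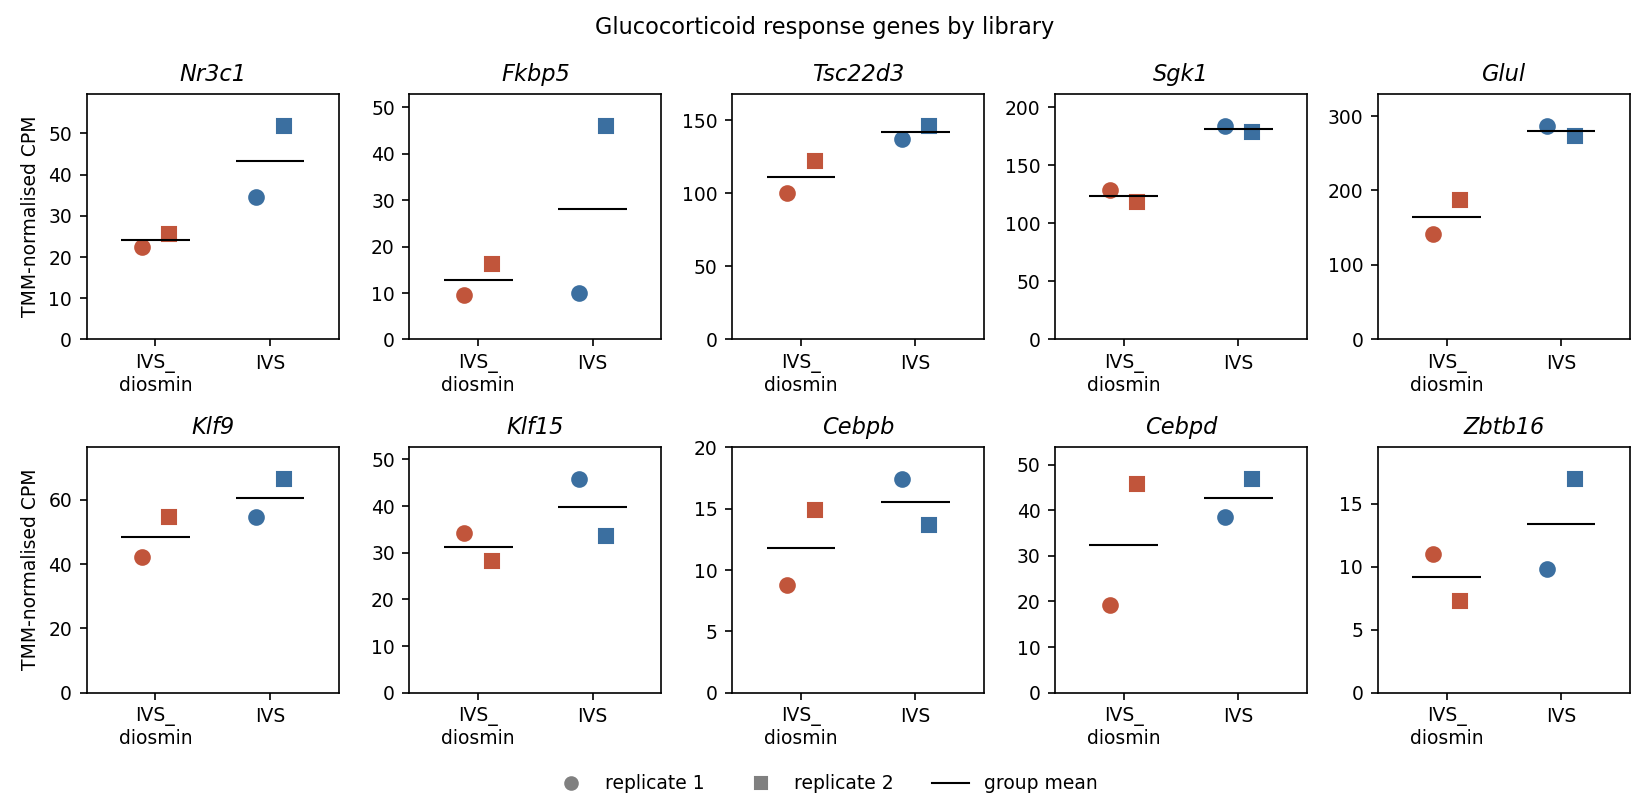
Level of each of the 10 genes (TMM-normalised CPM, from 0) in the 2 IVS_diosmin libraries (left, red) and the 2 IVS libraries (right, blue); circles are replicate 1, squares replicate 2 and bars the group means. The groups are apart for Nr3c1, Tsc22d3, Sgk1 and Glul, and Fkbp5 stands high in IVS replicate 2 alone, at 46.1 CPM.

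CPM are counts divided by each library's count total over the 13533 tested genes, after that total was adjusted by its TMM factor. The CPM of a library therefore do not sum to a fixed value. Over all genes of the files, counts summed to 13897740 and 14539304 in the IVS_diosmin libraries, and to 15324354 and 13056650 in the IVS libraries. The 10 genes had from 105 to 5023 counts in a library, so the spread between libraries, not counting, limits their precision. The libraries were of skeletal muscle by their markers: 7 fibre genes (Acta1, Ckm, Mylpf, Tnnt3, Myh4, Des and Mb) summed to 79340 and 82957 CPM in IVS_diosmin and 73647 and 83270 CPM in IVS. Of these 7, 2 (Des and Mb) rose with diosmin and none fell, against 1.17% and 1.78% of all tested genes. The groups also differed in measures that are not glucocorticoid genes. CT010467.1, a ribosomal RNA-like locus, took 1.16% and 0.936% of gene counts in IVS_diosmin and 4.14% and 3.80% in IVS (log2 fold change -1.81, edgeR adjusted p = 0.00269), and Rn7sk, a small nuclear RNA, had 154 and 86 counts in IVS_diosmin and 605 and 412 counts in IVS (log2 fold change -1.94, edgeR adjusted p = 0.0063). Of 8 endothelial markers 5 fell and none rose, against 1.78% and 1.17% of all tested genes. Their sum was 223 and 209 CPM in IVS_diosmin against 430 and 446 CPM in IVS. These 3 measures moved in the same direction as the 10 genes, and their part in the results was not tested.

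Compared per kilobase of annotated exon, which allows levels to be set side by side between genes, the 10 genes covered a wide range. Glul was the most abundant, with 49.5 ± 9.66 CPM per kb in IVS_diosmin and 84.3 ± 2.95 CPM per kb in IVS (SD, n = 2 each). Sgk1 and Tsc22d3 followed, at 25.1 and 25.7 CPM per kb in IVS_diosmin and 37.0 and 32.7 CPM per kb in IVS. Klf15 averaged 11.2 CPM per kb in IVS_diosmin and 14.2 in IVS, Klf9 10.1 and 12.6, Cebpd 8.65 and 11.4, and Cebpb 7.86 and 10.3 in the same order of groups. The receptor Nr3c1 lay lower, at 3.13 and 5.63 CPM per kb, above Fkbp5 at 1.36 and 2.96 and Zbtb16 at 1.73 and 2.54. Over the 4 libraries, only Glul and Sgk1, and Tsc22d3 and Klf15, were neighbours in this order whose ranges did not overlap.

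Nr3c1 (ENSMUSG00000024431, mm10 chromosome 18, 39410545 to 39519421) encodes the glucocorticoid receptor itself. It had 22.4 and 25.6 CPM in IVS_diosmin replicates 1 and 2, and 34.6 and 51.9 CPM in IVS replicates 1 and 2. Both diosmin libraries were low and close together, and IVS replicate 2 was the highest. The log2 fold change was -0.85 ± 0.24 (SE), and its 95% interval ran from -1.36 to -0.33, that is from 0.39 to 0.794 times the IVS level, but it missed the threshold after adjustment over all genes (edgeR adjusted p = 0.0798). Without IVS replicate 1 it passed (log2 -1.11, adjusted p = 0.038), and without IVS replicate 2 it was furthest from passing (log2 -0.53, adjusted p = 0.509).

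Fkbp5 (ENSMUSG00000024222, chromosome 17, 28399094 to 28517527) encodes FKBP51, a co-chaperone that lowers the receptor's affinity for hormone and is itself switched on by the receptor, which closes a feedback loop. It had 9.48 and 16.2 CPM in IVS_diosmin replicates 1 and 2, and 10.01 and 46.1 CPM in IVS replicates 1 and 2. One IVS library lay between the 2 diosmin libraries and the other 4.6-fold above its partner, so the groups overlapped. The log2 fold change of -1.11 ± 0.87 had a 95% interval from -3.65 to 1.43 (edgeR adjusted p = 0.64). Its sign rested on 1 library: without IVS replicate 2 the log2 fold change was 0.36 (adjusted p = 0.798), and without IVS replicate 1 it was -1.84 and passed (adjusted p = 0.00567).

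Among the effectors, Glul (ENSMUSG00000026473, chromosome 1, 153899944 to 153909723) makes glutamine from glutamate and ammonia, and muscle is a main source of glutamine for other organs. It had 142 and 187 CPM in IVS_diosmin replicates 1 and 2, and 287 and 273 CPM in IVS replicates 1 and 2. The groups were well apart, and IVS replicate 2, where Fkbp5 was high, was not high for Glul. The log2 fold change was -0.77 ± 0.21 (95% interval -1.23 to -0.31), the smallest p of the 10 genes, and it missed the threshold (edgeR adjusted p = 0.0765). It missed the threshold without each library in turn too (adjusted p from 0.0824 to 0.391), and its log2 fold change was nearest 0, at -0.58, without IVS_diosmin replicate 1.

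Sgk1 (ENSMUSG00000019970, chromosome 10, 21882184 to 21999903) is the serum- and glucocorticoid-regulated kinase, which acts on ion channels and on FOXO factors, and is the gene whose window above holds the full response element. It had 128 and 118 CPM in IVS_diosmin replicates 1 and 2, and 184 and 179 CPM in IVS replicates 1 and 2. These were the tightest replicates of the 10 genes in both groups. The log2 fold change was -0.56 ± 0.20 (95% interval -0.99 to -0.13), not past the threshold (edgeR adjusted p = 0.164), and from -0.62 to -0.52 without each library in turn.

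Tsc22d3 (ENSMUSG00000031431, chromosome X, 140539528 to 140600659) encodes GILZ, a leucine zipper protein that carries much of the anti-inflammatory action of glucocorticoids. It had 100.5 and 122 CPM in IVS_diosmin replicates 1 and 2, and 137 and 146 CPM in IVS replicates 1 and 2. The groups did not overlap, but the gap between them was smaller than the gap between the diosmin libraries. The log2 fold change of -0.35 ± 0.20 had a 95% interval from -0.79 to 0.09 (edgeR adjusted p = 0.433).

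**Figure D2:**
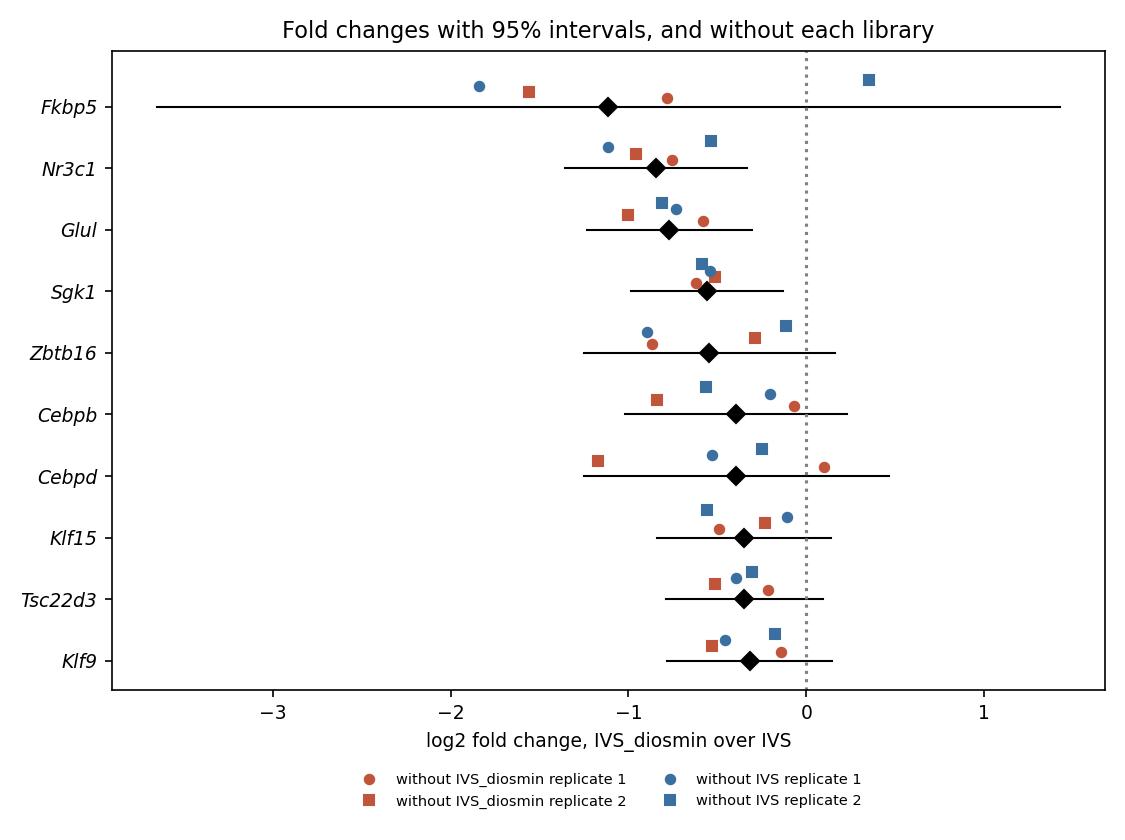
Log2 fold change of IVS_diosmin over IVS for each gene (black diamonds) with its 95% interval (black lines), and the same value with 1 library left out (coloured points). The intervals of Nr3c1, Glul and Sgk1 lie below 0, and the points of Fkbp5 without IVS replicate 2 (0.36) and of Cebpd without IVS_diosmin replicate 1 (0.10) lie above it.

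The other 5 genes encode transcription factors, and all of them overlapped between the groups. Klf9 (ENSMUSG00000033863, chromosome 19, 23141226 to 23168134), a zinc finger repressor that answers quickly to glucocorticoids, had 42.3 and 54.8 CPM in IVS_diosmin, and 54.7 and 66.6 CPM in IVS. Diosmin replicate 2 and IVS replicate 1 were level (log2 fold change -0.32 ± 0.21, edgeR adjusted p = 0.507). Klf15 (ENSMUSG00000030087, chromosome 6, 90462576 to 90475238), which in muscle drives breakdown of branched-chain amino acids, had 34.2 and 28.3 CPM in IVS_diosmin, and 45.9 and 33.6 CPM in IVS. Its highest library was IVS replicate 1, while those of Klf9 and Fkbp5 were IVS replicate 2 (log2 fold change -0.35 ± 0.23, edgeR adjusted p = 0.485).

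Cebpb (ENSMUSG00000056501, chromosome 2, 167688915 to 167690418) and Cebpd (ENSMUSG00000071637, chromosome 16, 15887286 to 15891031) encode basic leucine zipper factors that respond to both glucocorticoids and inflammation. Cebpb had 8.79 and 14.9 CPM in IVS_diosmin replicates 1 and 2, and 17.4 and 13.7 CPM in IVS replicates 1 and 2 (log2 fold change -0.40 ± 0.29, edgeR adjusted p = 0.551). Cebpd had 19.1 and 45.7 CPM in IVS_diosmin replicates 1 and 2, and 38.4 and 46.9 CPM in IVS replicates 1 and 2 (log2 fold change -0.39 ± 0.37, edgeR adjusted p = 0.677). For both, IVS_diosmin replicate 1 was the low library, and its partner lay between the IVS values. Without IVS_diosmin replicate 1 the log2 fold change of Cebpd was 0.10 (adjusted p = 0.902) and that of Cebpb -0.07 (adjusted p = 0.952), and without IVS_diosmin replicate 2 that of Cebpd was -1.17 and passed (adjusted p = 0.0445). Cebpb shares 312 exon bases with Tmem189 and Cebpd shares 562 with Spidr, on the opposite strand, and Glul shares 116 with Teddm2; reads there cannot be given to one gene without strand. Tmem189 had 149 to 209 counts in a library, of the order of Cebpb's 114 to 305, while Spidr had 11 to 28 against 248 to 672 for Cebpd.

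Zbtb16 (ENSMUSG00000066687, chromosome 9, 48654297 to 48836222) encodes PLZF, a zinc finger factor strongly induced by glucocorticoids in many human tissues. It had 11.03 and 7.29 CPM in IVS_diosmin replicates 1 and 2, and 9.83 and 17.0 CPM in IVS replicates 1 and 2. Only IVS replicate 2 lay above the diosmin libraries, as for Fkbp5 (log2 fold change -0.54 ± 0.32, edgeR adjusted p = 0.445). Without IVS replicate 2 the log2 fold change of Zbtb16 was -0.11.

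The genes thus did not share one pattern over the libraries. Relative to its own mean on the log2 scale, Fkbp5 was at 1.49 in IVS replicate 2 and -0.70 in IVS replicate 1, Nr3c1 at 0.70 and 0.12, and Zbtb16 at 0.65 and -0.13. Glul, Sgk1 and Tsc22d3 were level between the IVS libraries, at 0.36 and 0.43 for Glul, 0.26 and 0.30 for Sgk1, and 0.22 and 0.13 for Tsc22d3. Klf15 and Cebpb ran the other way, at -0.06 and 0.39 for Klf15 and 0.04 and 0.39 for Cebpb.

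Genes with the most similar profile were looked for among 6104 other genes with a mean of at least 10 CPM, by the Euclidean distance of mean-centred log2 CPM over the 4 libraries. Nearest to Glul were Sorbs2, a Z-disc adaptor (distance 0.07), Scarb1, a lipoprotein receptor (0.08), and Trim54, a ubiquitin ligase of muscle (0.09). Sorbs2 had 81.0 and 106 CPM in IVS_diosmin and 173 and 156 CPM in IVS. Nearest to Fkbp5, but far less close, were Scd1, a fatty acid desaturase abundant in fat (0.45), Cfd, the adipocyte protein adipsin (0.51), and Cilp, a cartilage and fibroblast matrix protein (0.57). Cfd had 5.71 and 10.8 CPM in IVS_diosmin and 8.06 and 22.8 CPM in IVS, with IVS replicate 2 the highest, as for Fkbp5. Over 4 libraries such likeness is a description only.

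Other glucocorticoid targets separated the IVS libraries from each other in the same direction as Fkbp5. Of 20 tested genes in this list, 10 were at least 2-fold higher in IVS replicate 2 than replicate 1 (5.98% of all tested genes). None was at least 2-fold lower, against 861 of all 13533 tested genes. Those higher included the metallothioneins Mt1 (33.4 CPM in IVS replicate 1 and 100.2 CPM in replicate 2) and Mt2 (9.61 and 39.4 CPM). They also included the cell cycle inhibitor Cdkn1a (30.3 and 89.0 CPM) and the phosphatidate phosphatase Lpin1 (75.4 and 172 CPM). Rasd1, a further one, rests on 6 and 13 counts. Between the diosmin libraries 1 of the 20 was at least 2-fold higher in replicate 2 (4.77% of all tested genes). In the other direction, 1 of the 20 was at least 2-fold higher in replicate 1, against 916 of all 13533 tested genes. It was Rasd1, on 32 and 4 counts in diosmin replicates 1 and 2. Of the 10 genes themselves, Fkbp5 passed this mark between the IVS libraries and Cebpd, at 2.39-fold, between the diosmin libraries. Of the 11 muscle atrophy effectors 2 passed it between the IVS libraries, against the same 5.98% of all tested genes: Trim63, the ubiquitin ligase MuRF1 (78.0 and 220 CPM in IVS replicates 1 and 2), and Foxo1, a transcription factor that switches such ligases on (10.3 and 36.9 CPM). Fbxo32, the ubiquitin ligase atrogin-1, had 116 and 98.1 CPM in these libraries. This comparison of single libraries was chosen after the values were seen and has no replicate check.

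Marker sums of 4 other cell types differed between the IVS libraries, with IVS replicate 2 the higher. Summed levels in IVS replicates 1 and 2 were 11.5 and 31.3 CPM for 5 adipocyte markers, 24.99 and 134 CPM for 4 Schwann cell markers, 105 and 191 CPM for 5 fibro-adipogenic progenitor markers, and 15.3 and 33.9 CPM for 6 macrophage markers. In IVS_diosmin replicates 1 and 2 the sums were 6.32 and 14.7 CPM for adipocyte, 36.9 and 67.6 CPM for Schwann cell, 143 and 137 CPM for fibro-adipogenic progenitor and 17.0 and 29.6 CPM for macrophage markers, and no marker of these 4 lists passed the test between the groups. Other sums differed less between IVS replicates 1 and 2: 194 and 177 CPM for smooth muscle and pericyte, 430 and 446 CPM for endothelial, 5.03 and 6.01 CPM for satellite cell and 1.66 and 1.38 CPM for lymphocyte markers. All 5 neutrophil markers, S100a8, S100a9, Ly6g, Mpo and Elane, were at 0 counts in every library. The part of these cells in the high Fkbp5 of IVS replicate 2 was not tested.

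**Figure D3:**
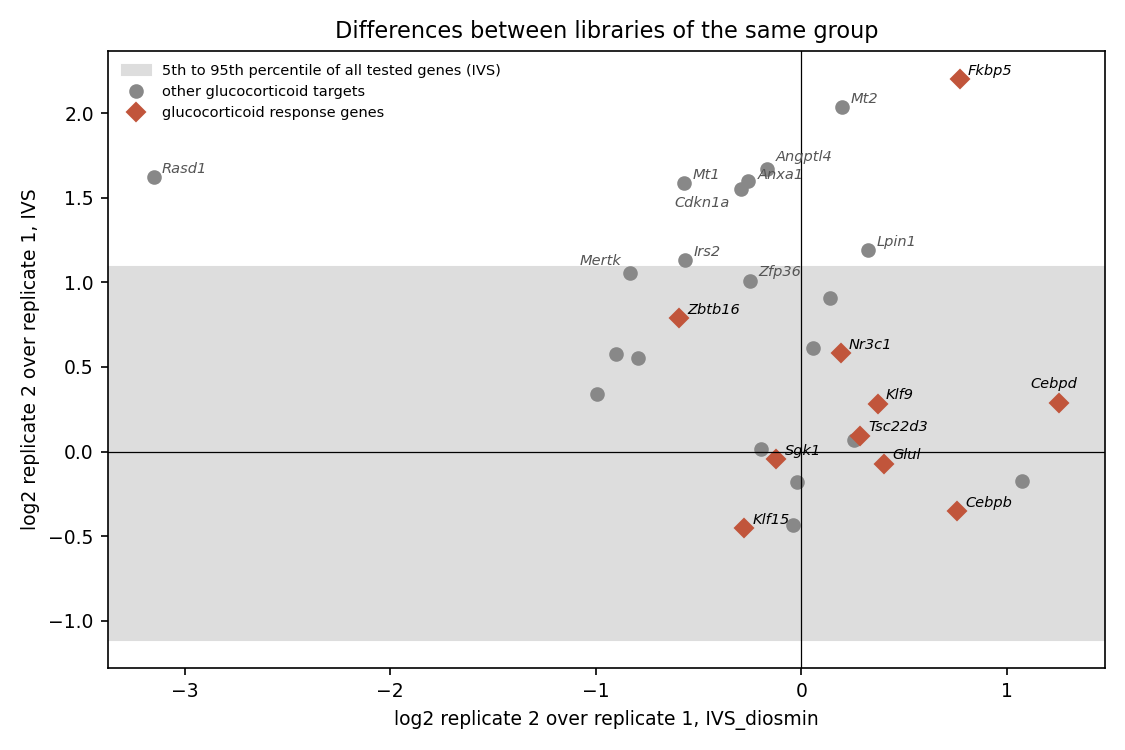
Log2 ratio of replicate 2 over replicate 1 in IVS_diosmin (horizontal) and in IVS (vertical) for the 10 glucocorticoid response genes (red diamonds) and 20 other glucocorticoid targets (grey circles; named where the IVS ratio is at least 2-fold); the grey band spans the 5th to the 95th percentile of all tested genes in IVS. Fkbp5 lies at 2.20 on the vertical axis, and 10 of the 20 other targets lie at or above 1.

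Between the groups, the same list of other targets had 2 of 20 tested members lower and none higher with diosmin, and a median log2 fold change of -0.49. Of all tested genes, 1.78% were lower and 1.17% higher. The fitted value was lower in 14 of the 20 and higher in 6, while 49.5% of all tested genes had a lower value. In 8 of the 20 both IVS_diosmin libraries lay below both IVS libraries, and in 1 above, against 24.1% and 23.4% of all tested genes. Both genes that fell are early response genes that glucocorticoids also raise: Dusp1, a phosphatase of MAP kinases, with 60.8 and 59.1 CPM in IVS_diosmin and 174 and 128 CPM in IVS (log2 fold change -1.33, edgeR adjusted p = 0.00776), and Zfp36, a protein that destabilises mRNA, with 15.2 and 12.8 CPM in IVS_diosmin and 31.6 and 63.7 CPM in IVS (log2 fold change -1.77, edgeR adjusted p = 0.0198). Other known receptor targets of the list did not pass: Per1, a clock gene, had 99.8 and 98.3 CPM in IVS_diosmin and 118 and 104 CPM in IVS (log2 -0.16), and Pdk4, a brake on glucose oxidation, had 350 and 188 CPM in IVS_diosmin and 127 and 190 CPM in IVS (log2 0.76, edgeR adjusted p = 0.251). The count of falls was 0 without IVS_diosmin replicate 1, 1 without IVS_diosmin replicate 2, 6 without IVS replicate 1 and 1 without IVS replicate 2.

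The receptor's chaperones fell in part. Of 10 tested members 3 were lower and none higher, against 1.78% lower and 1.17% higher of all tested genes. They were Hsp90aa1, the inducible HSP90, with 10.6 and 11.3 CPM in IVS_diosmin and 27.0 and 37.8 CPM in IVS (log2 -1.56, edgeR adjusted p = 0.00571), Dnaja1, an HSP70 partner (log2 -1.61, edgeR adjusted p = 0.00367), and Hspa8, the constitutive HSP70 (log2 -0.94, edgeR adjusted p = 0.0478). Hsp90ab1, the constitutive HSP90, had 412 and 431 CPM in IVS_diosmin and 418 and 488 CPM in IVS (log2 -0.10 ± 0.20), and Fkbp4, the co-chaperone that competes with FKBP51, had 80.7 and 82.2 CPM in IVS_diosmin and 62.8 and 76.2 CPM in IVS (log2 0.23 ± 0.20, edgeR adjusted p = 0.635). The count of falls was 0 without IVS_diosmin replicate 1 and 1 without IVS replicate 2, and Hspa8 was not called once any library was removed (edgeR adjusted p between 0.0546 and 0.327). The median log2 fold change of the 10 chaperones was -0.16. The 10 coregulators had no member past the threshold and a median log2 fold change of -0.01, and their smallest p was that of the acetyltransferase Ep300 (log2 -0.39, edgeR adjusted p = 0.427). In the list of receptor relatives and hormone supply, 3 genes were tested: Nr3c2, a relative of the receptor, Hsd11b1 and H6pd. None of these passed (smallest p for H6pd, log2 0.33, edgeR adjusted p = 0.571). Hsd11b1, which regenerates active hormone inside cells, had 1.62 and 1.39 CPM in IVS_diosmin and 0.629 and 2.76 CPM in IVS.

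Relatives of Klf9 and Klf15 fell in part. Of 11 tested Krüppel-like paralogs all had lower fitted values with diosmin, 3 fell and none rose, and 10 had both IVS_diosmin libraries below both IVS libraries; the median log2 fold change was -1.13. Over all tested genes, 49.5% had a lower fitted value, 1.78% fell, 1.17% rose and 24.1% had both IVS_diosmin libraries below both IVS libraries. Klf2, which in endothelium answers to blood flow, had 34.8 and 36.4 CPM in IVS_diosmin and 76.4 and 104 CPM in IVS (log2 -1.34 ± 0.22, edgeR adjusted p = 0.00766). Klf4 had 13.6 and 9.93 CPM in IVS_diosmin and 27.3 and 58.6 CPM in IVS (log2 -1.86 ± 0.36, edgeR adjusted p = 0.0313), and Klf6 had 19.6 and 23.2 CPM in IVS_diosmin and 51.8 and 51.4 CPM in IVS (log2 -1.27 ± 0.21, edgeR adjusted p = 0.00824). The difference between these genes and Klf9 or Klf15 was not itself tested. The endothelial marker sum given above was lower in the same libraries, and its part in the fall of Klf2 and Klf4 was not tested. None of the 3 passed without IVS_diosmin replicate 1 (adjusted p 0.143, 0.174 and 0.135 for Klf2, Klf4 and Klf6) or without IVS replicate 2 (0.0856, 0.10 and 0.056).

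**Figure D4:**
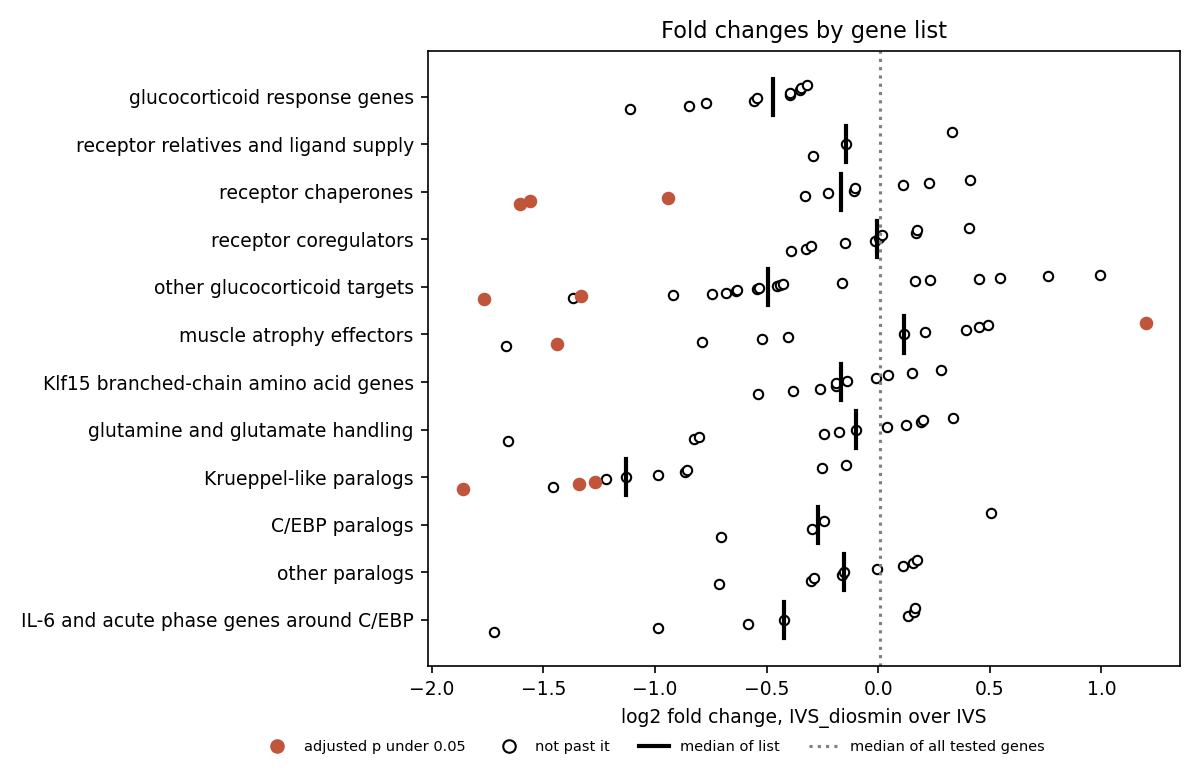
Log2 fold change of IVS_diosmin over IVS for each tested gene, by list (filled red: edgeR adjusted p under 0.05; open: not past it; bars: list medians; dotted line: median of all tested genes, 0.01). The glucocorticoid response genes all lie left of 0 with no filled point, and the filled points of the Krüppel-like paralogs are Klf2, Klf4 and Klf6.

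Of 11 muscle atrophy effectors 1 rose and 1 fell, against 1.17% and 1.78% of all tested genes, with a median log2 fold change of 0.12. Eif4ebp1, which restrains translation, rose with 39.8 and 52.4 CPM in IVS_diosmin and 18.1 and 22.2 CPM in IVS (log2 1.20, edgeR adjusted p = 0.0169), but was not called once any library was removed (adjusted p between 0.0761 and 0.0876). Ctsl, a lysosomal protease, fell with 27.4 and 27.6 CPM in IVS_diosmin and 64.2 and 84.9 CPM in IVS (log2 -1.44, edgeR adjusted p = 0.00491), and missed it without IVS_diosmin replicate 1 (0.112) and without IVS replicate 2 (0.0581). The ubiquitin ligases at the centre of glucocorticoid atrophy did not pass: Fbxo32, atrogin-1, had 132 and 170 CPM in IVS_diosmin and 116 and 98.1 CPM in IVS (log2 0.49, edgeR adjusted p = 0.262), and Trim63 had 95.2 and 76.9 CPM in IVS_diosmin and 78.0 and 220 CPM in IVS (log2 -0.79, edgeR adjusted p = 0.496).

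Of the 10 branched-chain amino acid genes around Klf15 none passed, and their median log2 fold change was -0.16. The smallest p was that of Bcat2, the mitochondrial transaminase that Klf15 is known to raise, with 24.1 and 32.9 CPM in IVS_diosmin and 49.1 and 33.6 CPM in IVS (log2 -0.54, edgeR adjusted p = 0.287). Its highest library was IVS replicate 1, as for Klf15. Of 11 glutamine and glutamate genes none passed, and the nearest was Slc3a2, the heavy chain of amino acid exchangers, with 16.5 and 16.7 CPM in IVS_diosmin and 27.0 and 31.8 CPM in IVS (log2 -0.83, edgeR adjusted p = 0.0624). The median of that list was -0.10, against -0.77 for Glul itself.

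Among the 4 tested C/EBP relatives, the 9 tested relatives of the other genes and the 7 tested IL-6 and acute phase genes, none passed the threshold. Their median log2 fold changes were -0.27, -0.15 and -0.42 in that order. The smallest p of each list belonged to Ddit3, a stress-induced C/EBP partner (log2 0.51, edgeR adjusted p = 0.328), Sgk3, a paralog of Sgk1 (log2 -0.71, edgeR adjusted p = 0.435), and Il1r1, the interleukin-1 receptor (log2 -0.99, edgeR adjusted p = 0.115). Il1b, an inflammatory cytokine that raises Cebpb and Cebpd, was at 0 counts in every library.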

How the data were processed

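The deposited files held raw counts of reads per gene, 1 file for each of 4 libraries, in HTSeq's layout. Per the submitters' processing notes, HISAT2 2.1.0, HTSeq and mm10 were used; which HTSeq version, annotation release or strand setting applied is not given in the sources used here. HTSeq's 5 summary lines were left out of every step; gene counts were 24.9% to 27.7% of the reads in a file, and 37.7% to 45.6% aligned to more than 1 place. Symbols, positions and exon lengths came from GENCODE M21 on mm10, matching 55141 of 55401 identifiers once versions were dropped. A symbol shared by several genes went to the one with most counts.

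Counts were tested with edgeR 4.0.16 in R 4.3.3 (filterByExpr, TMM, robust quasi-likelihood fit, IVS_diosmin minus IVS, 2-sided, Benjamini-Hochberg over 13533 genes, threshold 0.05). The biological coefficient of variation was 0.235. The SE was the log2 fold change over the square root of F, and 95% intervals used the t distribution with the fit's degrees of freedom. An exact permutation test of 1 gene with 2 libraries against 2 cannot go below p = 0.333. Replicates differed by more than counting error (chi-square per degree of freedom 21.1 in IVS_diosmin and 30.8 in IVS). DESeq2 1.42.0 and limma 3.58.1 were alternatives, and the fit was tested on simulated data. The members and lists were chosen with earlier results of these data known, so their counts are no independent support. Named genes were the 10 members, each list's genes past the threshold, or else its smallest p, and the 3 nearest profiles; other names were chosen after their values were seen.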

Additional observations from a re-analysis of the deposited data

How the results depend on the processing

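All 10 fold changes kept their direction under the 13 alternatives, with 2 exceptions: 0.36 for Fkbp5 without IVS replicate 2 and 0.10 for Cebpd without IVS_diosmin replicate 1. Both passed the threshold without the other library of that group, at -1.84 for Fkbp5 without IVS replicate 1 and -1.17 for Cebpd without IVS_diosmin replicate 2. DESeq2 called 606 of 9597 genes in all, 259 of them higher, 2 of the 10 glucocorticoid response genes and 1 glutamine gene as lower. It also called 3 chaperones, 2 other targets, 1 atrophy and 4 Krüppel-like genes lower, and 1 atrophy gene higher. Without the low-count filter 919 of 22446 genes were called, 394 higher and 525 lower. Among them were 2 of the 10 genes, as lower, and 1 other glucocorticoid target and 1 atrophy gene, as higher. Also called, as lower, were 3 other glucocorticoid targets, 3 chaperones, 3 atrophy, 1 glutamine, 5 Krüppel-like and 1 IL-6 list genes. With the replicate number as a block, 93 genes were called, 44 higher and 49 lower. That fit called 0 of the 10 genes, 1 other target lower, 0 atrophy genes higher and 0 Krüppel-like genes lower. It still called 2 chaperones and 1 atrophy gene lower. Same-numbered libraries did not deviate together over genes (r = 0.011). This r cannot show whether they shared a source or a day, which the labels do not say. The cause of these shifts in the counts of called genes was not tested. Leaving out 1 library at a time, where the library left alone is taken to vary as the other group does, gave from 38 to 366 genes in all, from 27 to 140 higher and from 11 to 257 lower, and from 0 to 2 of the 10 genes. For the lists it gave from 0 to 2 chaperones, 0 to 6 other targets, 0 to 3 atrophy and 0 to 4 Krüppel-like genes lower, and 0 to 0 atrophy genes higher. Scaling by RLE or upper quartile, limma-voom, a stricter filter, no robust estimation and library sizes without the 20 most abundant genes left the 10 genes at 0 calls, as in the reported fit.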
